A study of Mus musculus with 5 samples.

Results

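The chaperones of the endoplasmic reticulum and the genes of the unfolded protein response were followed here in the uterus of pseudopregnant mice. The group was chosen by gene symbol and consisted of Hspa5, Hsp90b1, Calr, Pdia3, Pdia4, Dnajb9, Herpud1, Xbp1, Atf4 and Ddit3, which are 10 of the 28666 genes in the deposited count table. Uterine RNA was sequenced from ICR females, 6 to 8 weeks of age, housed with vasectomized males of the C57BL/6 strain. The females thus received seminal plasma without sperm. In the aged-SP group the males were old (libraries of replicates 1 and 4, n = 2), and in the young-SP group they were young (replicates 1, 2 and 4, n = 3). The study left out a young-SP sample that its clustering set apart as an outlier. The spread of the young-SP group here may therefore be too small. The replicate numbers have gaps in both groups, and the study does not account for those of the aged-SP group. Whether aged-SP samples were also left out is not known here. The labels place uterus collection 3.5 days after caging. The study's methods give a slightly smaller number of days, but count it from mating as dated by the copulatory plug. These times are therefore not on the same scale. Neither group carried embryos and no group of unmated females was analysed here, so the comparison is between 2 kinds of exposure to seminal plasma.

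Proteins that are secreted or placed in membranes fold in the endoplasmic reticulum, with the help of binding chaperones and of disulfide isomerases. When unfolded proteins build up there, 3 sensors of its membrane, encoded by Ern1 (IRE1), Eif2ak3 (PERK) and Atf6, start the unfolded protein response. IRE1 splices the Xbp1 mRNA into a form that encodes an active transcription factor, PERK slows translation while favouring that of Atf4, and ATF6 is cleaved into a transcription factor. Targets include the chaperones themselves, factors of the degradation of misfolded proteins and, when stress persists, Ddit3 (CHOP). Secretory cells such as those of uterine glands rely on this machinery.

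The total count lay between 15071914 and 16728601 per library, and 17013 genes passed the filter on low counts, among them all 10 genes of the group. No library repeated another, and the closest pair, young-SP replicates 2 and 4, was still farther apart than counting noise allows (chi-square of 17 for each degree of freedom, 32.9 for the aged-SP pair). The uterine markers Pgr, Esr1, Hoxa10 and Hoxa11 were present in every library, with a summed level between 1194 and 1263 CPM (counts scaled to library size with TMM factors). Within this sum Esr1 was higher in both aged-SP libraries (419 and 395 CPM, against 310 to 353 CPM), and Pgr (200.04 and 204 CPM, against 222 to 288 CPM) and Hoxa11 were lower. The gland markers differed widely between libraries, at 4078 and 2930 CPM in the aged-SP group and 508, 50.7 and 41.7 CPM in the young-SP group. In the aged-SP libraries most of this came from the proteases Prss28 and Prss29. Of these 6 gland markers, 3 lay above and 1 lay below the young-SP range in both aged-SP libraries. Of 5 stromal markers 3 lay below it, and the part of these cell types in the results below was not tested. In whole uterus, fewer cells of a type and less RNA per cell cannot be told apart. The labels do not say whether a library was made from 1 female, so that the p-values measure the spread between these libraries only.

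Regulatory letters of the promoters are shown because elements of this kind are known from genes of the response. The windows are RefSeq promoters on GRCm38.p6, from 250 bases before to 50 bases after the start, and all 10 genes were matched. The endoplasmic reticulum stress element was searched as CCAAT and CCACG separated by 9 bases, and its second type as ATTGG and CCACG separated by 1 base. An XBP1 site was searched as TGACGTGG, and an ATF4 site as TGATGCAAT or TGATGAAAC, all on both strands. Capitals mark the match in each sequence, which is written 5′ to 3′ on the strand of its gene.
Hspa5, chr2:34772020-34772049, plus strand: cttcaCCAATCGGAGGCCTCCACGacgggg
Hsp90b1 upstream match, chr10:86705632-86705661, minus strand: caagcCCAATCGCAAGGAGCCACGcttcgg
Hsp90b1 downstream match, chr10:86705527-86705556, minus strand: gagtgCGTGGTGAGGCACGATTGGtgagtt
Calr, chr8:84847045-84847123, minus strand: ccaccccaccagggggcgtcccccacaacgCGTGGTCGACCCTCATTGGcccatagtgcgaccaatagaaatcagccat
Herpud1, chr8:94386347-94386417, plus strand: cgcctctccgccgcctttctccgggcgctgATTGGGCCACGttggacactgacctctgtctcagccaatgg

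The first element was matched at bases -65 to -47 from the start of Hspa5, at -212 to -194 and -107 to -89 from that of Hsp90b1, and at -162 to -144 from that of Calr. The second Hsp90b1 match and that of Calr are read on the opposite strand. Of 52 matched genes of the wider pathway described below, 6 held this element (Canx, Creld2, Derl3, Dnajc3, Pdia6 and Syvn1), and Dnajb11 held the second type. The Hspa5 match lies in an exon of a GENCODE transcript that starts earlier. Over all 32851 promoter windows the first element was found in 39 (0.119%), and the second type, matched in Herpud1 at -52 to -42, in 12 (0.0365%). The XBP1 letters were found in 222 windows (0.676%) and the ATF4 letters in 143 (0.435%), with 0 matches for either among the 10 genes. Of the 52 matched pathway genes, 4 held the XBP1 letters (Sec24d, Txndc5, Ube2j1 and Vcp). The ATF4 letters were held by 4 as well (Asns, Cnpy2, Nupr1 and Txndc5). Pdia3, Pdia4, Dnajb9, Xbp1, Atf4 and Ddit3 held none of the searched elements in this window. No match in the 10 genes overlapped a match of another kind. A match is a description of these letters and not evidence of binding.

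The genes differed widely in abundance. Because levels of different genes can be compared only per length, this order was read from FPKM (counts scaled to gene length and library total). The mean over the 5 libraries was 244 FPKM for Calr, 204 for Pdia3, 176 for Hspa5 and 102 FPKM for Hsp90b1. It was 82.5 FPKM for Xbp1, 79.8 for Pdia4 and 76.3 for Atf4. The lowest means were 32.8 FPKM for Herpud1, 29.3 for Dnajb9 and 9.36 FPKM for Ddit3. The first 4 genes kept this order in all 5 libraries, although their ranges over libraries overlapped. The order of Xbp1 against Hsp90b1, Pdia4 and Atf4 changed from library to library, as did that of Herpud1 and Dnajb9. The ranges of neighbours were separate only between Atf4 and Herpud1 and between Dnajb9 and Ddit3.

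**Figure D1:**
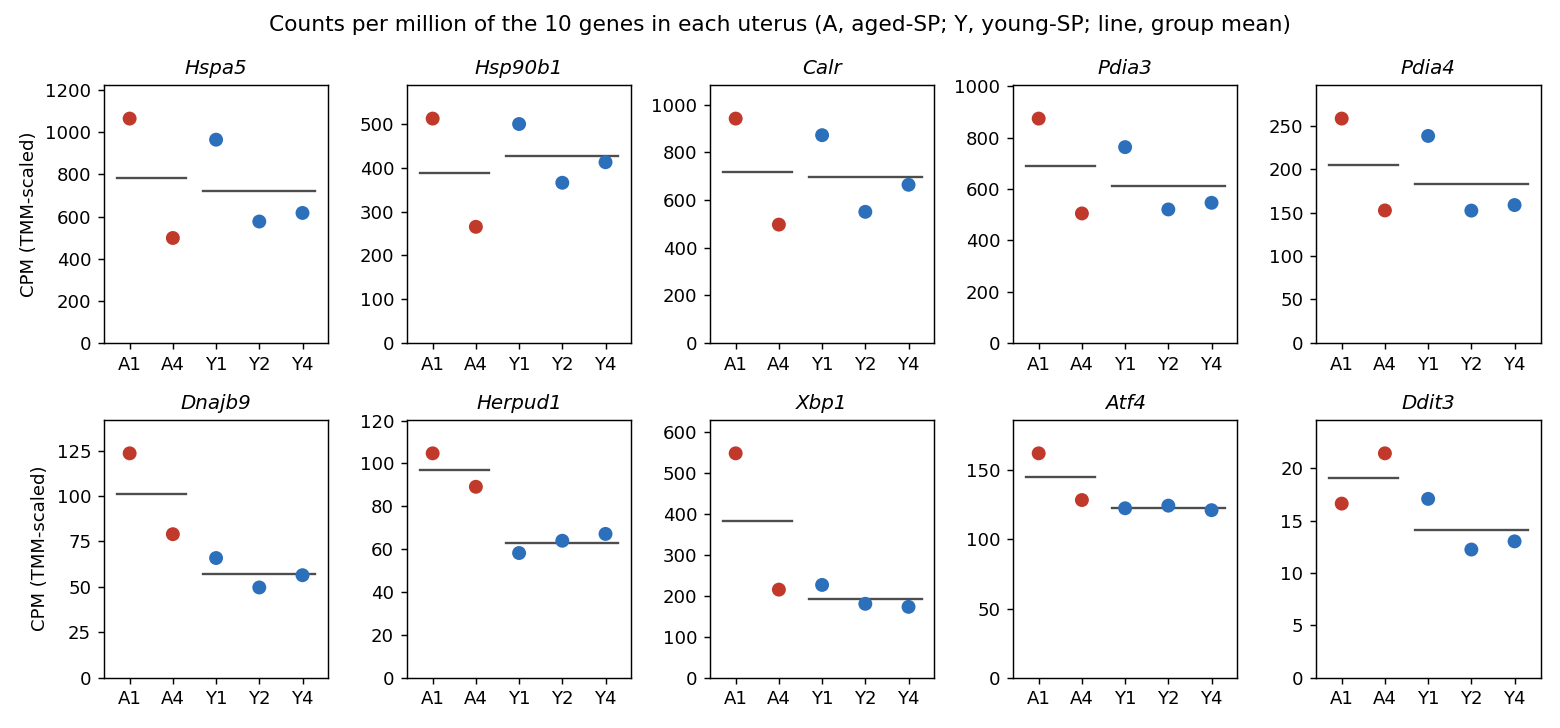
Level of each of the 10 genes in CPM (vertical axis) in every library of the aged-SP (n = 2) and young-SP (n = 3) groups. Points are libraries (A, aged-SP, Y, young-SP, with the replicate number) and horizontal lines are group means. Only for Dnajb9, Herpud1 and Atf4 do both aged-SP points lie above the 3 young-SP points.

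Between the groups, 0 of the 10 genes were called, a call being an adjusted p under 0.05 (edgeR quasi-likelihood test, Benjamini-Hochberg over 17013 genes) together with a log2 fold change over 1 in size. The same rule called 25 genes in all, or 0.147% of those tested. At an unadjusted p under 0.05, 3 of the 10 genes were higher in the aged-SP group (Dnajb9, Herpud1 and Xbp1), beside 9.62% of all tested genes, and 0 were lower, beside 9.36%. Both aged-SP libraries lay above all young-SP libraries for 3 genes (Dnajb9, Herpud1 and Atf4), beside 19.5% of all tested genes. They lay below for 0 of the 10, beside 19.3%, and the groups overlapped for the other 7. The median log2 fold change was 0.21 over the 10 genes and 0.01 over all tested genes. DESeq2 gave an adjusted p under 0.05, at any fold, for 2 of the 10 genes (Dnajb9 and Herpud1), both higher, beside 4.10% of all tested genes. It gave 0 of the 10 lower, beside 4.38%.

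The 5 genes for protein binding and folding, 4 of them the most abundant of the group, overlapped between the groups. Hspa5 encodes BiP, the main HSP70 chaperone of the endoplasmic reticulum, which also holds the sensors inactive. It lies at chr2:34771970-34777547 (plus strand, GRCm38, as do all gene positions here). Its level was 1066 and 498 CPM in aged-SP replicates 1 and 4, and 965, 577 and 617 CPM in young-SP replicates 1, 2 and 4. The aged-SP libraries held both the highest and the lowest value. Its log2 fold change, aged-SP over young-SP, was 0.12 with an SE of 0.38 and a 95% interval from -0.83 to 1.07 (adjusted p = 0.893, edgeR).

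Hsp90b1 (chr10:86690209-86705509, minus strand) encodes GRP94, the HSP90 chaperone of the same compartment. It stood at 513 and 265 CPM in the aged-SP libraries and at 500.5, 366 and 413 CPM in the young-SP libraries. Again the aged-SP group held both extremes. Hsp90b1 was the only one of the 10 genes with a fitted difference below 0, at -0.13 (SE 0.30, interval -0.88 to 0.61, adjusted p = 0.845, edgeR). Of its 50-base stretches, 3.71% also occur in other annotated genes and its exons overlap another gene, so that a part of its count is uncertain.

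Calr (chr8:84841850-84846934, minus strand) encodes calreticulin, a calcium-binding lectin chaperone of glycoproteins. Its level was 942 and 497 CPM in the aged-SP libraries, and 872, 550.3 and 664 CPM in the young-SP libraries. The young-SP values all lay between the aged-SP values. Calr had a log2 fold change of 0.05 (SE 0.32, interval -0.75 to 0.85, adjusted p = 0.951, edgeR).

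Pdia3 (chr2:121413775-121438687, plus strand) encodes ERp57, a disulfide isomerase that works with calreticulin, and Pdia4 (chr6:47796141-47813430, minus strand) encodes the related isomerase ERp72. Pdia3 was at 874 and 505 CPM in the aged-SP libraries and at 763, 520.1 and 546 CPM in the young-SP libraries. Pdia4 was at 258 and 153 CPM and at 238, 152 and 159 CPM. Both genes were highest in aged-SP replicate 1, next highest in young-SP replicate 1, and close together in the other 3 libraries. Pdia3 had a log2 fold change of 0.18 (SE 0.28, interval -0.53 to 0.89, adjusted p = 0.773, edgeR). For Pdia4 it was 0.17 (SE 0.30, interval -0.58 to 0.91, adjusted p = 0.798, edgeR). Exons of Pdia3 overlap Catsper2, and those of Pdia4 overlap Mir704.

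Summed over Hspa5, Hsp90b1, Calr, Pdia3 and Pdia4, these folding genes took 3653 CPM in aged-SP replicate 1 and 1917 CPM in aged-SP replicate 4. In young-SP replicates 1, 2 and 4 the sum was 3339, 2166 and 2399 CPM. Replicate 1 of each group was thus highest for these 5 genes, while the remaining libraries stood lower. The intervals of all 5 genes reached past a log2 difference of 0.5 in both directions, so that differences of that size are not excluded by these 5 libraries.

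**Figure D2:**
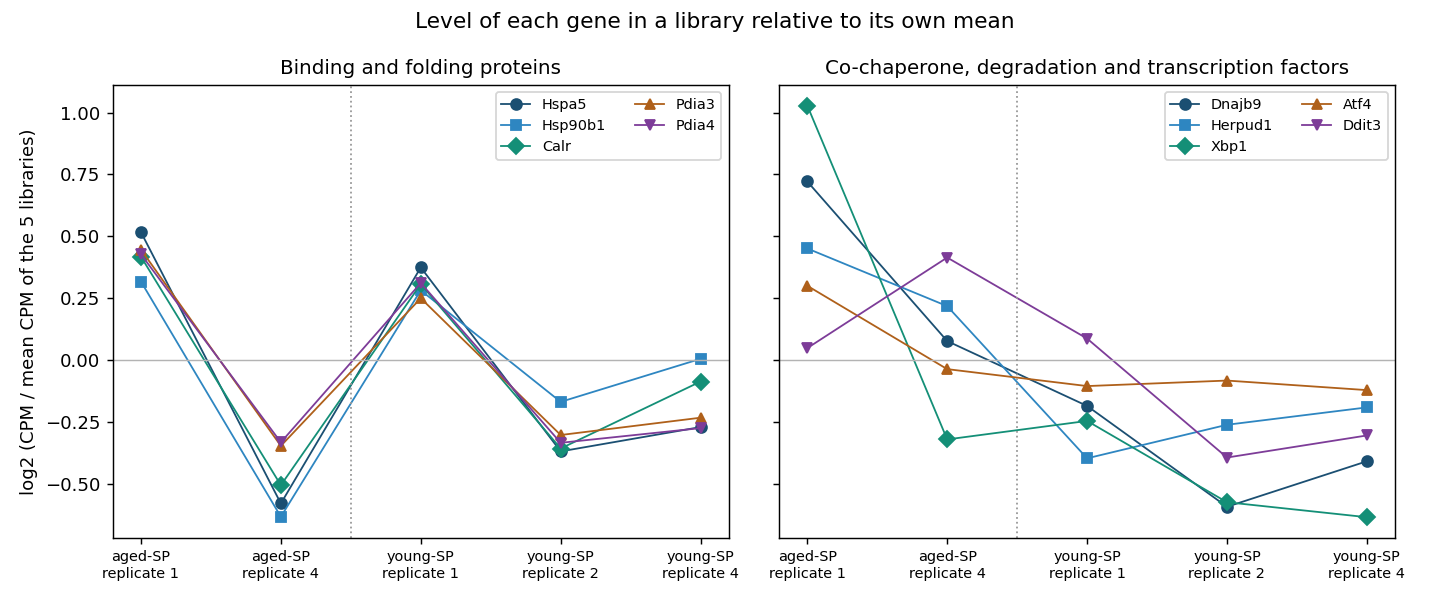
Level of each gene in each library relative to its mean over the 5 libraries (vertical axis, log2 scale), with libraries on the horizontal axis, the 5 folding genes at left and the other genes at right. Aged-SP replicate 1 is the highest library for 9 of the 10 genes, and the lines only join the values of a gene.

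The 2 aged-SP libraries differed from each other in most of the 10 genes. The ratio of aged-SP replicate 1 to aged-SP replicate 4 was 2.55 for Xbp1, 2.14 for Hspa5, 1.93 for Hsp90b1 and 1.90 for Calr. It was 1.18 for Herpud1 and 1.26 for Atf4, and Ddit3 alone was higher in replicate 4, with a ratio of 0.776. The median ratio was 1.71 over the 10 genes and 0.993 over all tested genes. Aged-SP replicate 1 was the highest of the 5 libraries for 9 of the 10 genes, which is 90%, and for 22.8% of the tested genes as a whole. The gland marker sum, carried by Prss28 and Prss29, was also highest in this library. Of the single gland markers, Prss28, Prss29, Spink1 and Lif were highest there, whereas Foxa2 and Cxcl15 were highest in young-SP replicate 2 (14.1 and 20.2 CPM, against 10.6 and 2.90 CPM in aged-SP replicate 1).

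Leaving out this library turned the sign of 4 folding genes. With that library omitted, fitted log2 fold changes were -0.53 for Hspa5, -0.49 for Calr, -0.28 for Pdia3 and -0.27 for Pdia4, and for Hsp90b1 it moved from -0.13 to -0.69. Without aged-SP replicate 4 it was 0.57 for Hspa5, 0.44 for Calr, 0.52 for Pdia3, 0.50 for Pdia4 and 0.27 for Hsp90b1. The direction of these genes therefore depended on which aged-SP library was used.

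Dnajb9 and Herpud1 were separate between the groups. Dnajb9 (chr12:44205559-44210326, minus strand) encodes ERdj4, a co-chaperone of BiP that brings it to misfolded proteins and to IRE1. Its level was 124 and 79.0 CPM in the aged-SP libraries and 65.9, 49.7 and 56.4 CPM in the young-SP libraries. Both aged-SP values lay above all young-SP values, with means of 101 ± 31.5 CPM (SD, n = 2) and 57.3 ± 8.14 CPM (SD, n = 3). Dnajb9 had a log2 fold change of 0.82 (1.77-fold), with an SE of 0.22 and an interval from 0.27 to 1.37. The adjusted p was 0.150 with edgeR and 0.0236 with DESeq2. Without aged-SP replicate 1 the log2 fold change was 0.46, and without aged-SP replicate 4 it was 1.11. Of its 50-base stretches, 5.80% also occur in an annotated gene elsewhere, and its exons overlap Mir5627.

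Herpud1 (chr8:94386438-94395377, plus strand) encodes a membrane protein that helps to assemble the complex for degradation of misfolded proteins. It stood at 105 and 89.1 CPM in the aged-SP libraries and at 58.2, 63.9 and 67.1 CPM in the young-SP libraries. The groups were separate and each was compact, with means of 96.9 ± 11.04 CPM (SD, n = 2) and 63.1 ± 4.52 CPM (SD, n = 3). Herpud1 had a log2 fold change of 0.62 (1.54-fold, SE 0.11, interval 0.33 to 0.91). The adjusted p was 0.0893 with edgeR and 0.00157 with DESeq2, so that only the latter passed 0.05, and its fold change stayed under that of a call in both tools. It stayed between 0.50 and 0.73 on the log2 scale when any 1 library was left out.

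**Figure D3:**
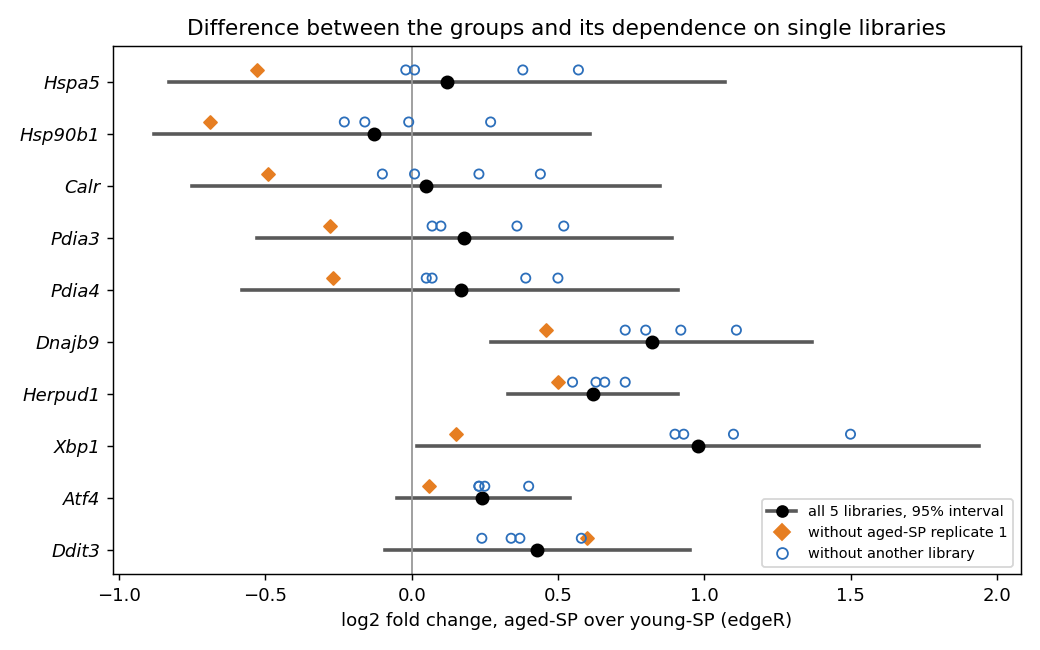
Log2 fold change, aged-SP over young-SP, of the 10 genes from edgeR (horizontal axis), with a black point and bar for all 5 libraries and the 95% interval, a diamond for the fit without aged-SP replicate 1 and open circles for the fits without another library. Herpud1 at 0.62 and Dnajb9 at 0.82 keep their side of 0 in all of these fits, as do Xbp1, Atf4 and Ddit3. With no overlap between the groups, Herpud1, Dnajb9 and Atf4 could hardly turn sign. Hspa5 goes from 0.12 to -0.53 without aged-SP replicate 1.

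Of the transcription factors, Xbp1 (chr11:5520659-5525893, plus strand) had the largest fitted difference of the 10 genes and the largest spread. Its level was 549 and 215 CPM in the aged-SP libraries and 227, 181 and 173 CPM in the young-SP libraries. Aged-SP replicate 4 lay below young-SP replicate 1, so the groups overlapped. The log2 fold change was 0.98 (1.97-fold, SE 0.38, interval 0.02 to 1.94), with an adjusted p of 0.257 by edgeR and 0.103 by DESeq2. It was 0.15 without aged-SP replicate 1 and 1.5 without aged-SP replicate 4. A count per gene does not tell the spliced Xbp1 mRNA from the unspliced one, so IRE1 activity was not measured.

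Atf4 (chr15:80255184-80257540, plus strand) encodes the transcription factor of the PERK arm, which is controlled mainly at translation. It stood at 162 and 128 CPM in the aged-SP libraries and at 122, 124 and 121 CPM in the young-SP libraries. The young-SP values were nearly equal, and the lower aged-SP value was close to them. Atf4 had a log2 fold change of 0.24 (SE 0.12, interval -0.05 to 0.54, adjusted p = 0.338, edgeR), and 0.06 without aged-SP replicate 1.

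Ddit3 (chr10:127290774-127296288, plus strand) encodes CHOP, a transcription factor of prolonged stress. It was the least abundant gene, at 16.6 and 21.4 CPM in the aged-SP libraries and 17.1, 12.2 and 13.0 CPM in the young-SP libraries. The lower aged-SP value lay just under the highest young-SP value. Ddit3 had a log2 fold change of 0.43 (SE 0.21, interval -0.09 to 0.95, adjusted p = 0.336, edgeR). Of its 50-base stretches, 6.66% occur in another annotated entry and its exons overlap Mars, so that its low count is the least certain of the group.

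A wider list of 66 genes of the pathway was tested beside the 10, and 0 of them were called. Higher values in the aged-SP group had an unadjusted p under 0.05 in 10 of the 66 genes, beside 9.62% of all tested genes, and lower values in 7 of 66, beside 9.36%. The other 49 did not pass. Both aged-SP libraries lay above the young-SP libraries for 13 of the 66 genes, beside 19.5% of all tested genes, and below for 8, beside 19.3%. The first of these shares is about that of all genes. The median log2 fold change was 0.14, and the smallest adjusted p was 0.0734 (edgeR). By DESeq2, 7 of the 66 were higher at an adjusted p under 0.05, beside 4.10% of all tested genes, and 5 were lower, beside 4.38%. The counts by role below are small and are to be read against the same shares of all tested genes. The list thus held genes with fitted differences of both signs. Apart from Eif2ak3 and Atf6, the genes named by role below were chosen for an unadjusted p under 0.05 (edgeR) and no overlap between groups. Their separation therefore restates that choice and is not a further result.

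Among the sensors and transducers, 2 of 9 were higher and 2 lower at an unadjusted p under 0.05 (9.62% and 9.36% of all tested genes). Ern1 stood at 122 and 75.1 CPM in the aged-SP libraries and at 51.8, 52.6 and 52.2 CPM in the young-SP libraries. Its young-SP values were nearly equal and both aged-SP values lay above them (log2 fold change 0.91, SE 0.20, adjusted p = 0.114 with edgeR and 0.00465 with DESeq2). The other sensors overlapped between the groups. Eif2ak3 had a log2 fold change of 0.16 (SE 0.24, adjusted p = 0.749, edgeR) and Atf6 one of 0.23 (SE 0.20, adjusted p = 0.583, edgeR). Creb3l2 and Creb3l1, transcription factors related to ATF6, differed in opposite directions. The log2 fold change was 0.44 for Creb3l2 (adjusted p = 0.138 with edgeR and 0.0319 with DESeq2) and -0.72 for Creb3l1 (0.172 and 0.0409). Mbtps1, a protease that cleaves ATF6, had a log2 fold change of -0.25 (adjusted p = 0.261 with edgeR and 0.185 with DESeq2).

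Of 11 further chaperones and co-chaperones, 1 was higher at an unadjusted p under 0.05, about the 9.62% of all tested genes, and 0 were lower (9.36%), with a median log2 fold change of 0.26. That gene was Sil1, a nucleotide exchange factor of BiP, at 49.6 and 29.9 CPM in the aged-SP libraries and 22.0, 18.5 and 16.96 CPM in the young-SP libraries. The groups were separate (log2 fold change 1.05, SE 0.24, adjusted p = 0.121 with edgeR and 0.0063 with DESeq2). Among 9 oxidative folding genes, the oxidase gene Ero1lb was higher (0.54, adjusted p = 0.255, edgeR) and the isomerase gene Txndc5 lower (-0.49, adjusted p = 0.137, edgeR) at an unadjusted p under 0.05 (9.62% and 9.36% of all tested genes). With DESeq2 the adjusted p was 0.230 for Ero1lb and 0.0123 for Txndc5. Without aged-SP replicate 1 the log2 fold change of Ero1lb was 0.23 and that of Txndc5 -0.66.

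Of 15 genes for quality control and degradation, 2 were higher and 1 lower at an unadjusted p under 0.05, near the 9.62% and 9.36% of all tested genes. Derl3, a component of the channel for export of misfolded proteins that is known from secretory cells, had the largest fold change of the list. It stood at 10.6 and 4.03 CPM in the aged-SP libraries and at 1.44, 0.946 and 0.734 CPM in the young-SP libraries. Both aged-SP values exceeded all young-SP values, although they differed widely from each other. The log2 fold change was 2.81 (SE 0.51, interval 1.53 to 4.09, adjusted p = 0.0879 with edgeR and 0.000245 with DESeq2), and 1.94 without aged-SP replicate 1. Its raw counts in the young-SP libraries were 23, 16 and 11.

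Edem2, a mannosidase-like factor that marks glycoproteins for degradation, was at 82.0 and 69.3 CPM in the aged-SP libraries and at 45.3, 44.2 and 48.2 CPM in the young-SP libraries. The groups were separate (log2 fold change 0.72, SE 0.11, adjusted p = 0.0734 with edgeR and 7.51e-05 with DESeq2). Vcp, the ATPase that extracts proteins from the membrane, was at 154 and 141 CPM against 237, 247 and 228 CPM. Both aged-SP values lay below all young-SP values (log2 fold change -0.69, SE 0.09, adjusted p = 0.0734 with edgeR and 1.48e-08 with DESeq2). Of the 50-base stretches of Vcp, 60.1% occur in a related annotated sequence, so its count is uncertain.

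Of 13 targets of ATF4 and the integrated stress response, 3 were higher and 2 lower at an unadjusted p under 0.05 (9.62% and 9.36% of all tested genes). Nupr1, a stress-induced nuclear protein, was at 54.5 and 60.4 CPM in the aged-SP libraries and at 34.03, 16.3 and 22.6 CPM in the young-SP libraries. The groups were separate (log2 fold change 1.24, SE 0.30, adjusted p = 0.131 with edgeR and 0.00525 with DESeq2). Asns, asparagine synthetase, was at 31.1 and 16.6 CPM against 52.2, 46.9 and 35.8 CPM, and so lower in both aged-SP libraries (log2 fold change -0.92, adjusted p = 0.211 with edgeR and 0.0628 with DESeq2). Phgdh, which opens serine synthesis, had a log2 fold change of -1.13 (adjusted p = 0.159 with edgeR and 0.0132 with DESeq2), with 63.1% of its stretches shared with other annotated sequences. The transcription factor gene Atf3 (0.83, adjusted p = 0.184, edgeR) and Ppp1r15a, which encodes the phosphatase subunit GADD34 (0.53, adjusted p = 0.263, edgeR), had log2 fold changes above 0. Their adjusted p with DESeq2 was 0.0785 and 0.237, and without aged-SP replicate 1 the value for Ppp1r15a was 0.16.

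Of 9 genes of the translocon and secretory pathway, 1 was higher and 1 lower at an unadjusted p under 0.05, near the 9.62% and 9.36% of all tested genes. Sec11c, a catalytic subunit of the signal peptidase, was at 87.2 and 81.4 CPM in the aged-SP libraries and at 51.6, 53.7 and 44.4 CPM in the young-SP libraries. Sec23b, a coat protein of vesicles that leave the endoplasmic reticulum, was at 189 and 136 CPM against 285, 262 and 340 CPM. Both genes were separate between the groups, in opposite directions. The log2 fold change was 0.76 for Sec11c (SE 0.11, adjusted p = 0.0734 with edgeR and 1.36e-05 with DESeq2). For Sec23b it was -0.86 (SE 0.19, adjusted p = 0.114 with edgeR and 0.00209 with DESeq2).

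**Figure D4:**
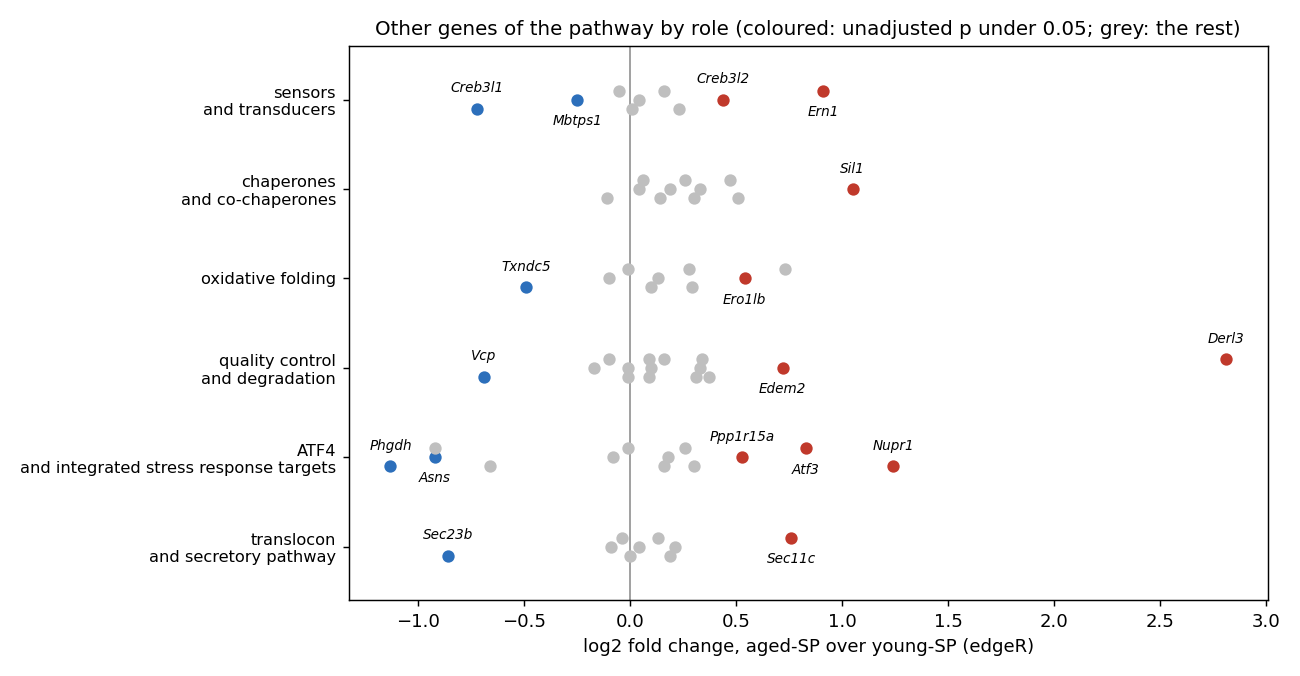
Log2 fold change, aged-SP over young-SP, of the 66 pathway genes (horizontal axis, edgeR) by role (vertical axis). Coloured, named points have an unadjusted p under 0.05, 10 above 0 and 7 below, and Derl3 at 2.81 lies farthest from 0.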

How the data were processed

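Per the study's methods, total RNA was extracted from uteri for the libraries, and the reads were filtered and aligned. A raw count per gene and library was deposited. The submitters' processing notes name HISAT2 2.1.0, Bowtie2 2.2.3 and HTSeq 0.6.0. The genome build is not given in the sources used here, but 26999 of 28666 genes have the positions of GENCODE M21 (GRCm38). The deposited FPKM are these counts per gene length and library total, and were used only for levels per length. The authors' own fold changes, p-values and scaled means in the table were not used, and 0 other columns of values per sample were left unused.

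Genes were kept by filterByExpr and scaled by TMM (factors 0.99 to 1.02), and the groups were compared with edgeR 4.0.16 (glmQLFit, glmQLFTest) in R 4.3.3. Intervals are 95% intervals of the log2 fold change. DESeq2 1.42.0, limma-voom (limma 3.58.1), other scalings and filters, a replicate block and each library left out were alternatives. On 3 simulated datasets with 200 altered genes each, edgeR recovered 81.0%, with 7.78% false among its calls. DESeq2 recovered 91.5%, with 21.6% false. Every altered gene had a log2 change larger in size than that fitted for any of the 10 genes. Genes with the lowest counts were not altered. The shares recovered therefore do not apply to differences as small as those of the 10 genes. Marker lists of uterine epithelium, glands, stroma, uterine identity, myometrium, endothelium, leukocytes, plasma cells and pancreas were summed as CPM. The members and lists were chosen with earlier results of these data known. Named pathway genes are those with an unadjusted p under 0.05 and no overlap between groups, at most 20, and the 3 sensors. Protein sequences were not used here.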

Additional observations from a re-analysis of the deposited data

How the results depend on the processing

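The lowest count of any of the 10 genes was 195 (Ddit3), and the biological coefficient of variation over all genes was 25.1%. No gene of the 10 was called under any alternative, and 2 to 4 of them had an unadjusted p under 0.05. Of 348 fold changes of single genes under the alternatives, 330 kept direction and side of the threshold, 7 newly passed it and 11 turned sign. Most of the pathway genes among these were chosen for no overlap between the groups and could hardly turn sign. None of these genes was called in the main fit. The counts therefore do not measure how stable the results are. Without aged-SP replicate 1 the log2 fold change was -0.53 for Hspa5, -0.49 for Calr, -0.28 for Pdia3, -0.27 for Pdia4, -0.27 for Eif2ak3 and -0.14 for Atf6. It was -0.69 for Hsp90b1. Without aged-SP replicate 4 it was 0.57 for Hspa5, 0.27 for Hsp90b1, 0.44 for Calr, 0.52 for Pdia3, 0.50 for Pdia4, 0.49 for Eif2ak3 and 0.51 for Atf6, and without young-SP replicate 2 it was -0.02 for Hspa5 and -0.10 for Calr. The median over the 10 genes lay between -0.10 and 0.51 when 1 library was left out. Of the pathway list, DESeq2 called 4 genes (Derl3, Nupr1, Phgdh and Sil1) and the fit without a filter 1. With 1 library left out, 0 to 1 were called (Ern1 without aged-SP replicate 4, Nupr1 without young-SP replicate 1) and 13 to 28 had an unadjusted p under 0.05, with 28 without aged-SP replicate 4. Over all genes, 25 were called by edgeR, 615 by DESeq2, 203 without a filter, 49 without aged-SP replicate 4, 578 without young-SP replicate 1 and between 1 and 3 without each of the other libraries in turn. The cause of these shifts was not tested. Replicate numbers are shared by 2 pairs only, whose deviations correlated at 0.152 and 0.136, and were not taken as pairing. The other pairs of an aged-SP and a young-SP library lay lower, between -0.152 and 0.0757. With 2 aged-SP libraries these values mirror each other, so they cannot decide whether libraries were paired. With the replicate block, the log2 fold change was -0.08 for Hspa5 and -0.15 for Calr, 3 of the 10 genes and 13 of the list had an unadjusted p under 0.05, and 2 genes were called in all.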

Other observations

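Pdia6, a disulfide isomerase outside the group of 10, was singled out after its values were seen. It stood at 708 and 277 CPM in aged-SP replicates 1 and 4 and at 397, 253 and 244 CPM in the young-SP libraries. As with Xbp1, aged-SP replicate 1 was far above the other libraries and aged-SP replicate 4 lay below young-SP replicate 1. The log2 fold change was 0.73 (SE 0.43, adjusted p = 0.415, edgeR), and -0.11 without aged-SP replicate 1. Sel1l, an adaptor of the degradation complex also chosen after its values were seen, lay between 114 and 119 CPM in all 5 libraries, with a log2 fold change of -0.01 (SE 0.08, adjusted p = 0.940, edgeR).

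Markers of plasma cells, which hold a large endoplasmic reticulum, summed to 230 and 309 CPM in the aged-SP libraries and to 238, 350 and 273 CPM in the young-SP libraries. Of these 6 markers, 0 were separate between the groups. The sum held 117 to 170 CPM of Sdc1, whereas Igha ranged from 10.1 to 131 CPM. Igha, Jchain and Mzb1 were lowest in the replicate 1 libraries of the groups, but Sdc1 and Ighm were highest in young-SP replicate 1. Of 5 pancreas markers, 4 were under 1 CPM in every library. Leukocyte markers summed to between 153 and 274 CPM, endothelial markers to between 299 and 535 CPM, epithelial markers to between 700 and 1368 CPM, stromal markers to between 1533 and 2592 CPM, and myometrial markers to between 7987 and 12290.4 CPM. For 3 of 5 stromal markers the aged-SP values lay under the whole young-SP range. Their part in the levels of the chaperone genes was not tested.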
